A study of Mus musculus with 12 samples.

Results

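The question addressed here was which genes answered retinoic acid (RA) differently when the long non-coding RNA Dali was depleted in N2A cells, a mouse neuroblastoma line. For each gene the RA response of control cells was subtracted from the RA response of knockdown cells, and this difference of 2 log2 responses is called the interaction. A positive interaction means that the response of knockdown cells lay above that of control cells. Of 19938 genes with a single symbol on the array, the 9969 with the larger spread over all arrays were tested, and 124 of them had an interaction that passed an adjusted p of 0.05 in limma and was at least 1.3-fold (called). These 124 genes are the members described here. They were 1.24% of the genes tested. Of them, 49 interactions were positive, or 0.492% of tested genes, and 75 were negative, or 0.752%.

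The data were 4 groups of 3 arrays each (12 Affymetrix Mouse Gene 1.0 ST arrays in all). Control cells carried a stably integrated vector with a scrambled, non-targeting short hairpin, and knockdown (KD) cells carried a stable Dali hairpin vector. Each kind of cell was profiled while proliferating in medium with 10% serum, and after 72 h in medium with 20 µM all-trans RA and 2% serum, so every RA response below also includes the lowered serum. All cells were drug-selected clones that also took up a hygromycin resistance plasmid. The study described 1 control line and 3 knockdown clones, and the labels call the 3 arrays of a group biological replicates without saying which clone or culture each came from. The p-values therefore measure the spread between these samples, and a property of the control line or of a knockdown clone cannot be told apart from the loss of Dali. No probe set on the array was named for Dali, so the depletion itself could not be checked here.

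Short hairpin RNAs lower a transcript by being cut into small RNAs that guide its cleavage. The study designed 4 hairpins against Dali, and they are shown because they define the knockdown that the interaction is about. The sources used here do not say which of them the profiled lines carried. Capitals mark the 17-base arm that returns as its reverse complement after the loop, in oligonucleotides of 52 bases.
sh74: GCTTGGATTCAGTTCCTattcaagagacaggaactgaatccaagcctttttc
sh862: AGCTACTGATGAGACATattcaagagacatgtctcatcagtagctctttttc
sh906: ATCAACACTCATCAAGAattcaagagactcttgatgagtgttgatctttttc
sh1000: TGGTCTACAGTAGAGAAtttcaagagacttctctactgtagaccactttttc

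RA enters the nucleus and binds retinoic acid receptors paired with retinoid X receptors, which exchange corepressors for coactivators at target genes. In neuroblastoma cells the treatment is known to slow growth and start neurite formation. Growth was not measured on these arrays, and most listed S phase and mitotic genes rose after RA in both kinds of cell, as given below. Homeobox factors of the Meis and Pbx families are well-known RA-responsive genes, while immediate early genes such as Jun follow growth factor and stress signals more than retinoid receptors.

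By the mean levels of marker lists, the cells matched their label. The 12 measured markers of neuroblastoma and neurons had a mean level between 9.75 and 10.13 on the log2 scale over the 12 arrays, at the 89.4th percentile of all genes. The lists of glial, fibroblast, and immune and endothelial markers had mean levels between 6.25 and 6.87 on every array, at the 30.3rd to 39.9th percentile. Single members departed from these means. Vim, on the latter lists, was at 12.80 and the 99.8th percentile, and Dbh, the lowest neuronal marker, at 7.79 and the 56.2nd percentile. The mean level of the neuronal markers itself moved with the groups. It was 9.91 to 9.94 on proliferating and 9.83 to 9.85 on RA-treated control arrays, against 10.09 to 10.13 and 9.75 to 9.90 on knockdown arrays. Its part in the interactions of single genes was not tested. Arrays of a group correlated at 0.992 to 0.996, and arrays of different groups at 0.986 to 0.993.

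In control cells 931 tested genes were called (9.34%), 556 higher (5.58%) and 375 lower (3.76%), and in knockdown cells 991 (9.94%), 535 higher (5.37%) and 456 lower (4.57%). Of these, 606 genes were called in both kinds of cell in the same direction and 2 in opposite directions. Another 323 genes were called in control cells only, but only 20 of them (6.19%) had a called interaction. Of the 383 called in knockdown cells only, 48 had one (12.5%). For most genes that passed in 1 kind of cell alone, a difference between the responses was thus not shown. Across the tested genes the responses correlated at r = 0.771, a description over genes, which are not independent. The SD of the response was 0.25 in control and 0.25 in knockdown cells, and the SD of the interaction was 0.17, against a median standard error of the interaction of 0.096.

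Sorted by which response was called, the 124 genes fell into 6 classes. A response present in control cells was lost in knockdown cells for 20 genes (14 falls and 6 rises) and weakened for 8 (6 rises and 2 falls). It was strengthened for 6 genes (4 falls and 2 rises). A response not called in control cells was gained by 48 genes, of which 36 fell and 12 rose. It was reversed for 2 genes. In the other 40 neither response was called alone, although they differed. All responses of these 40 genes were smaller than 1.3-fold, so an interaction of at least 1.3-fold required opposite signs and these are no separate finding. The scatter of the responses shows these classes on either side of the line of equal response.

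**Figure D1:**
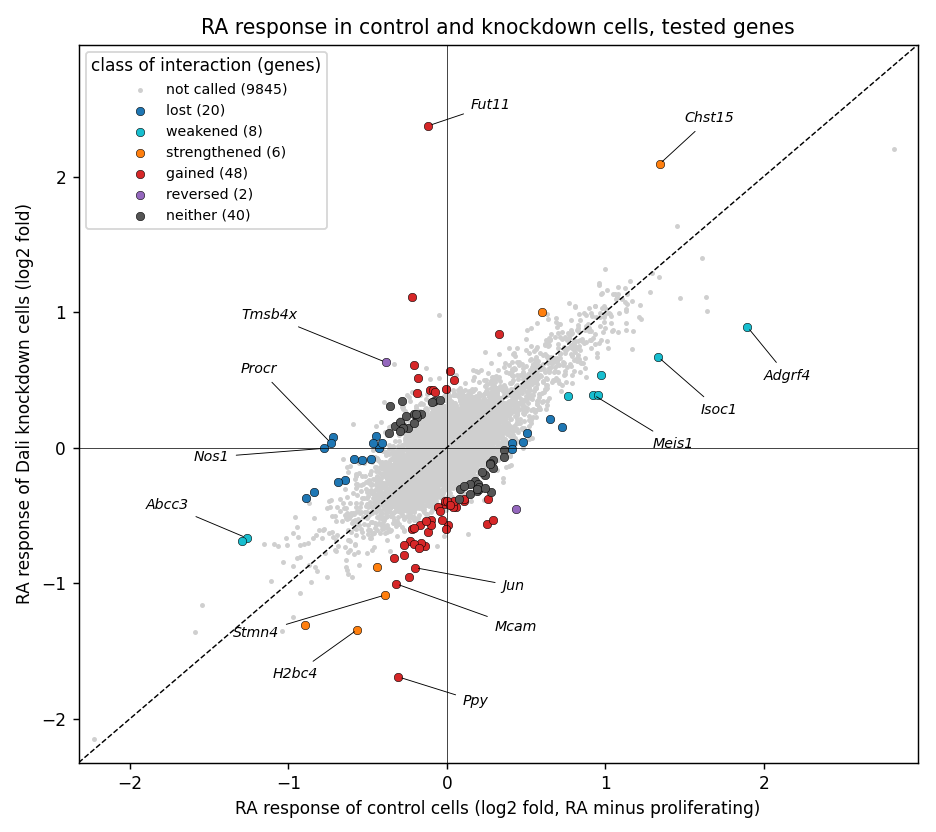
RA response of the 9969 tested genes, as log2 fold of RA-treated over proliferating cells, in control cells (x axis) and Dali knockdown cells (y axis). Coloured points are the 124 genes with a called interaction by class, grey points all other tested genes, and the dashed line is an equal response. Most red points (gained) lie below 0 on the y axis, where knockdown cells fell, and near 0 on the x axis.

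The lost responses included nitric oxide and cell surface genes. Nos1 encodes the neuronal nitric oxide synthase. Its log2 levels were 8.12, 8.09 and 8.08 on proliferating and 7.26, 7.38 and 7.32 on RA-treated control arrays, and 6.83, 6.92 and 7.00 on proliferating and 6.97, 6.97 and 6.80 on RA-treated knockdown arrays. All 6 control arrays lay above all 6 knockdown arrays, the control groups did not overlap each other and the knockdown groups did. Nos1 fell by 0.78 on the log2 scale in control cells (1.71-fold), while the change in knockdown cells was -0.01 (95% interval -0.14 to 0.13), giving an interaction of 0.77 ± 0.09 (SE; limma adjusted p = 0.0024). The lower level in proliferating knockdown cells, -1.18, was larger than that after RA, -0.41.

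Procr encodes the endothelial protein C receptor, a cell surface receptor of the anticoagulant pathway. Its levels were 8.93, 9.04 and 8.83 on proliferating and 8.14, 8.35 and 8.12 on RA-treated control arrays, against 8.39, 8.41 and 8.33 and then 8.46, 8.39 and 8.38 on knockdown arrays. Knockdown arrays of both states overlapped each other and lay below the proliferating control arrays, and the lowest of them, at 8.33, was just under the highest RA-treated control array, at 8.35. The interaction was 0.76 ± 0.10 (limma adjusted p = 0.0076). The other lost falls that were named were Phxr4 (interaction 0.79), Cd63, a tetraspanin of late endosomes (0.53), Ndrg2, a stress-responsive member of the NDRG family (0.52), and Slc16a3, a lactate exporter (0.51). For Ndrg2 and Slc16a3 a smaller fall remained in knockdown cells, -0.37 and -0.33, just short of the 1.3-fold limit of 0.38 on the log2 scale. The largest response among the lost genes in knockdown cells was that of Ndrg2. The glutamate receptor subunit gene Gria2 (interaction 0.45) and the integrin gene Itga2 (0.51), outside the naming rule, were also among the 14 lost falls, whose median response was -0.62 in control and -0.04 in knockdown cells.

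Among the 6 lost rises was Pbx3, a homeobox cofactor of Meis and Hox proteins. Its levels were 10.23, 10.14 and 10.17 on proliferating and 10.88, 10.74 and 10.87 on RA-treated control arrays, and 10.31, 10.39 and 10.35 and then 10.56, 10.57 and 10.55 on knockdown arrays. None of the 4 groups overlapped, and RA-treated knockdown cells stayed below RA-treated control cells. The control rise was 0.65 and the knockdown rise 0.21 (95% interval 0.10 to 0.32), with an interaction of -0.44 ± 0.07 (limma adjusted p = 0.016). Otogl (interaction -0.58), the potassium channel gene Kcnh7 (-0.44) and the autophagy gene Trp53inp2 (-0.42) followed. For Kcnh7 knockdown arrays were lower in both states, at 5.84 to 5.91 and 5.83 to 6.02, against 6.61 to 6.75 and 7.07 to 7.24 in control cells. A response that was not called is not shown to be absent: for 3 of the 20 lost genes the 95% interval of the knockdown response reached 1.3-fold in the direction of the control response.

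Of the 6 weakened rises, Adgrf4 had the largest interaction. Adgrf4, an adhesion G protein-coupled receptor, had levels of 7.12, 7.27 and 7.42 on proliferating and 9.20, 9.09 and 9.21 on RA-treated control arrays, and 8.04, 8.23 and 7.98 and then 9.05, 8.99 and 8.89 on knockdown arrays. The knockdown arrays began higher and ended lower than the control arrays, with no overlap in either state. It rose by 1.90 on the log2 scale in control cells (3.73-fold) and by 0.89 in knockdown cells (1.85-fold), an interaction of -1.01 ± 0.12 (limma adjusted p = 0.0038).

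Of 9 tested genes on the list of retinoid handling and RA target genes, 1 was called, beside 0.752% of all tested genes called negative. This was Meis1, a homeobox factor that pairs with Pbx proteins. Its levels were 8.03, 8.04 and 7.87 on proliferating and 8.93, 8.96 and 8.83 on RA-treated control arrays, and 7.63, 7.71 and 7.72 and then 8.05, 8.16 and 8.02 on knockdown arrays. The RA-treated knockdown arrays reached only a little above the proliferating control arrays. The rise was 0.93 in control and 0.39 in knockdown cells, and the interaction was -0.54 ± 0.09 (limma adjusted p = 0.016). Isoc1, an isochorismatase domain gene, rose by 1.33 in control and 0.67 in knockdown cells, an interaction of -0.67 ± 0.06 (limma adjusted p = 0.0017). Resf1, a regulator of retroelement silencing, rose by 0.95 and 0.38. Tbx20, a T-box factor outside the naming rule, rose by 0.98 and 0.53. Meis1, Pbx3 and Tbx20 were thus 3 developmental transcription factors with a smaller rise in knockdown cells, grouped after their values were seen. Unlike Meis1 and Pbx3, Tbx20 overlapped after RA, at 9.59 to 9.70 in control and 9.53 to 9.68 in knockdown cells. Before RA it was higher in knockdown cells, at 9.00 to 9.14 against 8.62 to 8.80. Of the 12 refits that left out 1 array, 2 kept the call of Tbx20.

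The 2 weakened falls were Abcc3 and Milr1. Abcc3, an exporter of organic anions, fell by 1.26 on the log2 scale in control and by 0.67 in knockdown cells. It differed between the proliferating cells, 9.71 to 9.78 in control against 9.15 to 9.22 in knockdown, while the RA-treated arrays overlapped at 8.42 to 8.55. The interaction was 0.60 ± 0.06 (limma adjusted p = 0.0020). Milr1, an inhibitory immunoglobulin-like receptor of mast cells, fell by 1.29 and 0.69 (interaction 0.60 ± 0.11).

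**Figure D2:**
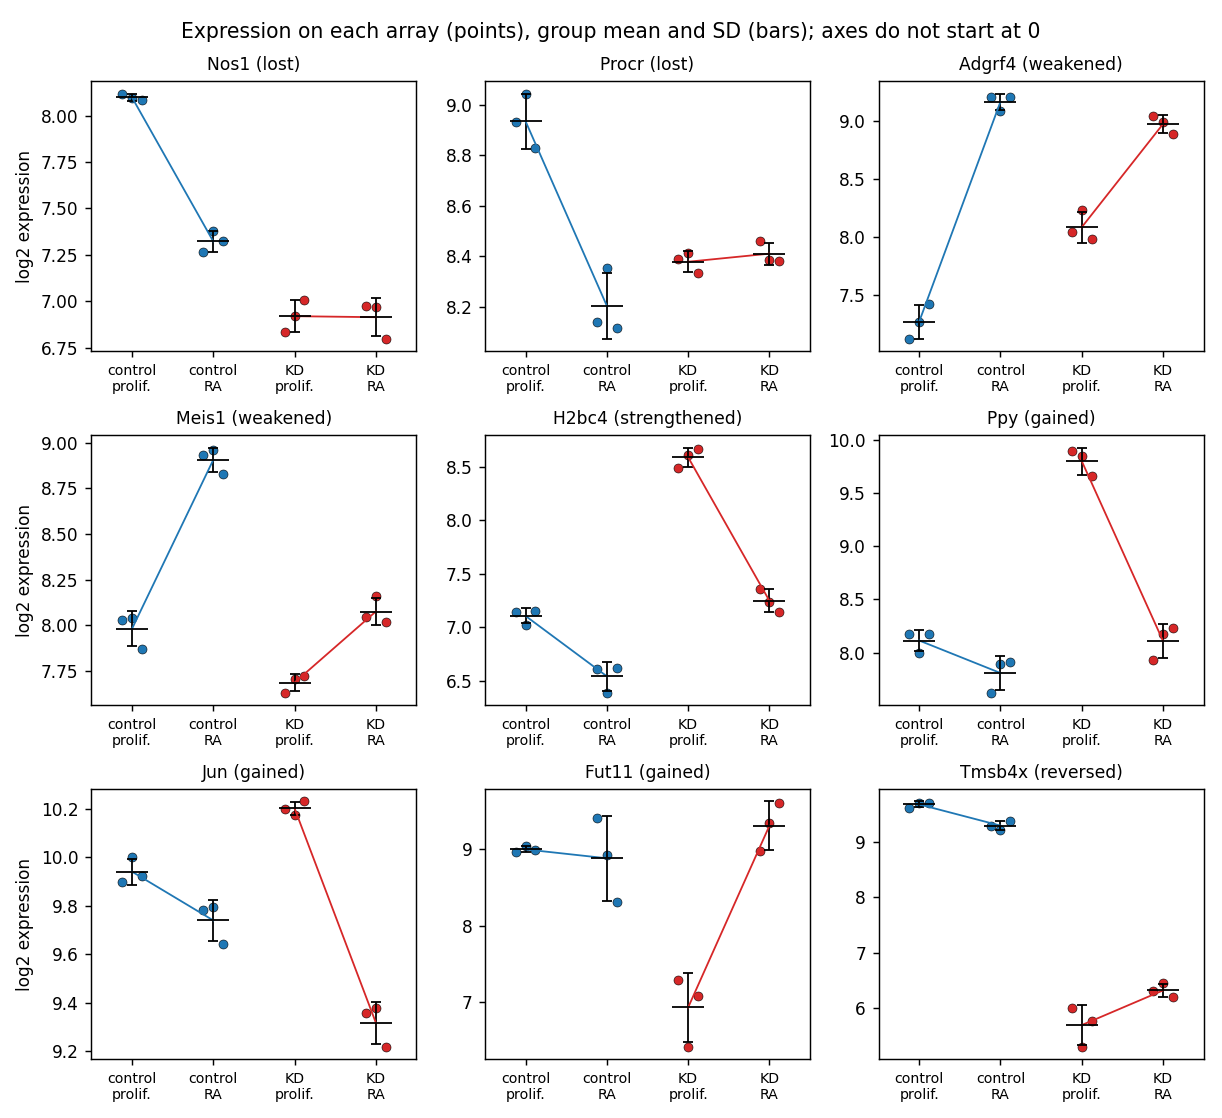
Log2 expression of 9 genes on each array, in proliferating (prolif.) and RA-treated control (blue) and knockdown (KD, red) cells, with the mean and SD of each group of 3 arrays. Lines join the group means of one kind of cell, and an unequal slope is the interaction. Nos1 and Procr have a steep line in control and a flat one in knockdown cells, Ppy and Jun fall more steeply in knockdown cells, and the Fut11 arrays of 3 groups are spread widely.

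Split by direction, the gained falls were the largest group, 36 of the 124 genes. Their interactions ranged in size from 0.38 to 1.39, and their median response was -0.10 in control and -0.57 in knockdown cells. Before RA, 28 of the 36 were higher in knockdown than in control cells, and 13 of them passed the call rule there, with 2 called lower. Over all tested genes 3.96% were called higher and 3% lower in proliferating knockdown cells. After RA, 14 of the 36 were called lower in knockdown cells and none higher, beside 4% lower and 3.71% higher over all tested genes. Some gained falls were present in control cells too and missed only the fold limit there. These included Mcam (-0.32, limma adjusted p = 0.00040), Lmo1 (-0.27, limma adjusted p = 0.0023), Jun (-0.20, limma adjusted p = 0.019) and Ppy (-0.31, limma adjusted p = 0.036). Mycn and Rab30, with limma adjusted p of 0.39 and 0.94 in control cells, were not among them. For 7 of all 48 gained genes the 95% interval of the control response reached 1.3-fold in the direction of the knockdown response. The interaction and both knockdown comparisons come from the same arrays, so these counts describe where the difference lay and are no further evidence for it.

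Ppy, which encodes pancreatic polypeptide, a hormone of the neuropeptide Y family, had the most negative interaction. Its levels were 8.17, 8.00 and 8.17 on proliferating and 7.62, 7.89 and 7.91 on RA-treated control arrays, and 9.90, 9.85 and 9.66 and then 7.93, 8.17 and 8.23 on knockdown arrays. The proliferating knockdown arrays stood more than 1 log2 unit above the other 3 groups. Ppy fell by 1.69 on the log2 scale in knockdown cells (3.23-fold), against -0.31 in control cells, and the interaction was -1.39 ± 0.14 (limma adjusted p = 0.0017).

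The AP-1 genes Jun and Jund belonged to this class, and were the 2 called members, both negative, among 24 tested immediate early and ERK feedback genes. The list had a median interaction of -0.05 over its 30 measured members, with 11 above 0, beside a median of -0.02 over all genes. Among all tested genes 0.752% were called negative. Jun had levels of 9.90, 10.00 and 9.92 on proliferating and 9.78, 9.80 and 9.64 on RA-treated control arrays, and 10.20, 10.18 and 10.23 and then 9.36, 9.38 and 9.22 on knockdown arrays. The knockdown arrays lay highest of all before RA and lowest of all after it, without overlap. The interaction was -0.68 ± 0.08 for Jun (limma adjusted p = 0.0038) and -0.51 ± 0.09 for Jund (limma adjusted p = 0.021). Other stress and growth factor responsive genes with a gained or strengthened fall, grouped after their values were seen, were Klf6 (interaction -0.48), the small GTPase gene Rhob (-0.50), the MAP kinase phosphatase genes Dusp8 (-0.58) and Dusp16 (-0.45), and the NF-κB inhibitor gene Nfkbia (-0.44).

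The gained falls also held neural transcription factors. Mycn, the MYC family gene that drives neuroblastoma, had levels of 9.01, 9.00 and 8.98 and then 9.00, 9.03 and 9.14 on control arrays, and 9.47, 9.46 and 9.52 and then 9.08, 9.00 and 9.06 on knockdown arrays. The proliferating knockdown arrays were higher than all others, and the other 9 arrays overlapped. The change was 0.06 in control and -0.44 in knockdown cells (interaction -0.50 ± 0.07, limma adjusted p = 0.0076). For Lmo1, a LIM-only transcriptional cofactor, the proliferating arrays were at 9.02 to 9.07 in control and 9.55 to 9.67 in knockdown cells, while the RA-treated arrays overlapped at 8.67 to 8.83. Unlike Mycn, Lmo1 was also lower after RA in control cells, by -0.27 against -0.79 in knockdown cells (interaction -0.52 ± 0.08, limma adjusted p = 0.0090). Mycn and Lmo1 were the 2 called of 21 tested neural transcription factors, both negative, beside 0.752% of all tested genes called negative. Mycn was also the one called of 10 tested neuroblastoma and neuronal markers, a list with a median interaction of -0.22 and 2 of 12 measured members above 0.

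Of 23 tested genes of the neuronal cytoskeleton and growth cone, 2 had a negative and 1 a positive called interaction, and the median over the 30 measured was -0.09. Beside this, 0.752% of all tested genes were called negative and 0.492% positive, and the median over all genes was -0.02. Stmn4, a stathmin that destabilises microtubules, fell by 0.39 on the log2 scale in control and by 1.09 in knockdown cells (interaction -0.70 ± 0.09, limma adjusted p = 0.0076). Its RA-treated arrays were 8.12 to 8.18 in control and 7.65 to 7.80 in knockdown cells, without overlap. Tubb2b, a neuronal β-tubulin, overlapped between control and knockdown cells before RA, at 10.48 to 10.53 and 10.41 to 10.49, and stood lower in knockdown cells after RA, at 9.83 to 10.09 against 10.40 to 10.52. Tubb2b kept its call in none of the 12 refits that left out 1 array. In 9 of them it was tested and not called, and without any one of the RA-treated knockdown arrays it did not pass the spread filter. Mcam, a cell adhesion molecule of the immunoglobulin family, fell by 1.00 on the log2 scale in knockdown and by 0.32 in control cells (interaction -0.68 ± 0.07, limma adjusted p = 0.0017).

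The gained falls further included Lix1, Cfap221 and Rab30. Lix1, named for its expression in the limb bud, had levels of 8.30, 8.40 and 8.34 and then 8.66, 8.53 and 8.62 on control arrays, and 6.05, 6.04 and 6.35 and then 5.45, 5.85 and 5.43 on knockdown arrays. All knockdown arrays lay below all control arrays, and the 2 kinds of cell lay further apart after RA (interaction -0.82 ± 0.15, limma adjusted p = 0.027). Cfap221, a gene of motile cilia, was the opposite in level, at 7.57 to 7.60 on proliferating knockdown arrays against 6.41 to 6.55 on proliferating control arrays, and at 6.51 to 6.77 against 6.10 to 6.36 after RA (interaction -0.72 ± 0.11, limma adjusted p = 0.011). For Rab30, a Golgi GTPase gene, control arrays of both states overlapped, at 7.38 to 7.57, while knockdown arrays went from 7.70 to 7.80 down to 7.11 to 7.23 (interaction -0.59 ± 0.09, limma adjusted p = 0.0083).

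Tmsb4x, the actin-sequestering thymosin β4, was a reversed gene and the positive member of the cytoskeletal list. Its levels were 9.63, 9.72 and 9.72 on proliferating and 9.30, 9.23 and 9.38 on RA-treated control arrays, and 5.99, 5.29 and 5.77 and then 6.30, 6.44 and 6.19 on knockdown arrays. It fell in control cells by 0.39 and rose in knockdown cells by 0.63, an interaction of 1.01 ± 0.19 (limma adjusted p = 0.028). The knockdown level was far below the control level in both states, by -4.01 before and -2.99 after RA. The other reversed gene, the olfactory receptor gene Olfr787 (named after its values were seen), rose by 0.44 in control cells and fell by 0.45 on the log2 scale in knockdown cells, but its mean level, 3.11, was at the 0.68th percentile of all genes and is not shown to be above background. Of the 12 refits that left out 1 array, 4 kept the call of Tmsb4x and 2 that of Olfr787.

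The strengthened class held 3 more falls beside Stmn4, namely the histone genes H2bc4 and H1f2 and Nfkbia, and 2 rises. H2bc4 had levels of 7.14, 7.03 and 7.15 and then 6.61, 6.39 and 6.62 on control arrays, and 8.49, 8.61 and 8.67 and then 7.36, 7.24 and 7.14 on knockdown arrays. Both states were higher in knockdown cells, and the fall was steeper there, -1.34 against -0.56 (interaction -0.78 ± 0.11, limma adjusted p = 0.0083). Of 26 tested histone genes, a group formed after values were seen, 4 had a called interaction, all negative (H2bc4, H2bc8, H1f1 and H1f2). Over all tested genes 0.752% were called negative. The median over the 32 measured histone genes was -0.18, beside -0.02 over all genes. Without any one of the proliferating control arrays, the first or the third RA-treated control array, or the second or the third RA-treated knockdown array, H2bc4 alone of the 4 kept its call. Histone genes have closely similar copies, which probes can share, so these are not 4 separate measurements with certainty. The rises were Chst15, a chondroitin sulphate sulphotransferase, which rose by 1.34 in control and 2.09 in knockdown cells (interaction 0.75 ± 0.15, limma adjusted p = 0.033), and Tube1, ε-tubulin (0.60 and 1.00). Chst15 kept its call in 3 of the 12 refits that left out 1 array.

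The gained rises were fewer and less secure. Fut11, an α1,3-fucosyltransferase gene, had the most positive interaction of all, 2.49 ± 0.38 (limma adjusted p = 0.011). Its levels were 8.96, 9.04 and 8.99 on proliferating and 9.41, 8.92 and 8.31 on RA-treated control arrays, and 7.29, 6.42 and 7.09 and then 8.97, 9.34 and 9.60 on knockdown arrays. The proliferating knockdown arrays were the low ones and the other groups overlapped. A second Fut11 probe set did not show this: its interaction was -0.08, with group means between 8.49 and 8.64. Psmc2, a proteasome ATPase subunit, rose by 0.33 in control and 0.84 in knockdown cells. Its control rise had a limma adjusted p of 0.0016 and missed only the fold limit. The liver-secreted protease inhibitor gene Fetub changed by 0.42 in knockdown cells against -0.10 in control cells. The endoplasmic reticulum chaperone gene Pdia4 (interaction 0.44) rested on a probe set whose neighbour in the same gene gave 0.06.

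Of the 12 gained rises, 5 were small RNA genes, and 3 more lay among the 40 genes with neither response called. These 8 were the spliceosomal RNA Rnu5g (interaction 1.33), the Y RNA Rny1 (0.82), the small nucleolar RNAs Snord15b (0.67), Snord49a (0.63), Snord52 (0.54) and Snord49b (0.51), and the microRNA genes Mir186 (0.59) and Mir155 (0.47). They were grouped after their values were seen. Rnu5g was dim, with a mean level of 4.83 at the 7.47th percentile of all genes and proliferating control arrays from 4.28 to 5.03, and is not shown to be above background. All 8 were positive, out of 215 small RNA genes tested, beside 0.492% of all tested genes called positive. The median interaction of the tested small RNA genes was 0.10, against -0.02 over all tested genes. Without the third proliferating control array none of the small RNA genes tested was called, and leaving out any other array left at most 5.

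Of 27 tested interferon response genes, 3 were called, all negative. These were Ifit1 (interaction -0.59), the transcription factor gene Irf1 (-0.51) and the oligoadenylate synthetase-like gene Oasl2 (-0.50). The 31 measured members had a median of -0.05, with 11 above 0, beside a median of -0.02 over all genes. Over all tested genes 0.752% were called negative. None of the 3 kept its call without the second or the third proliferating control array, the third RA-treated control array, the second proliferating knockdown array or the second RA-treated knockdown array, and 1 of them, Irf1, kept it with the replicate number as a block. Ifit1, an RNA-binding antiviral protein, had levels of 5.86, 5.67 and 5.61 and then 5.44, 5.58 and 5.71 on control arrays, and 6.34, 6.32 and 6.20 and then 5.51, 5.56 and 5.62 on knockdown arrays. Only the proliferating knockdown arrays stood apart, above the others. Oasl1, with a lost rise (-0.38), and the immunity-related GTPase gene Irgm1 (-0.44) also had negative interactions and were noticed after their values were seen. A second Irf1 probe set gave 0.11, of the opposite sign.

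Of the 40 genes with neither response called, the nutrient and growth factor genes Slc2a1 and Pdgfrb were positive. Slc2a1, the widely expressed glucose transporter, changed by -0.30 in control and 0.19 in knockdown cells (interaction 0.49 ± 0.08, limma adjusted p = 0.019), with proliferating arrays at 10.50 to 10.63 in control and 9.99 to 10.13 in knockdown cells and overlapping RA-treated arrays. It was the one called of 27 tested glycolysis and hypoxia genes, a list with a median interaction of 0.04. Over all tested genes 0.492% were called positive. Pdgfrb, a PDGF receptor gene, changed by -0.21 and 0.25 (interaction 0.45 ± 0.08). It belongs to the fibroblast markers, of which it was the one called of 8 tested, and the mean level of that list ranged from 6.67 to 6.87 over the arrays.

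**Figure D3:**
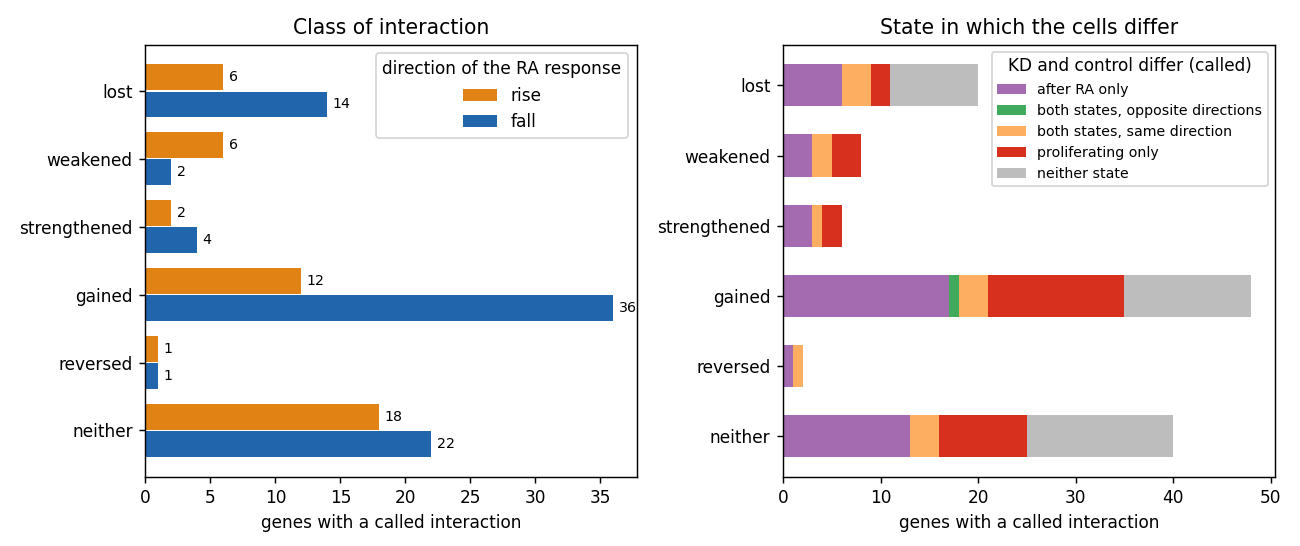
Left, number of genes with a called interaction in each class, split by the direction of the RA response (for the class neither, by the sign of the interaction). Right, the same genes by the state in which knockdown and control cells differed by the same call rule. Gained falls, with 36 genes, are the largest group, and every class but the strengthened, reversed and weakened ones has genes in which the cells passed the rule in neither state.

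Read across the other way, 43 of the 124 genes differed by the call rule between knockdown and control cells after RA only and 30 in proliferating cells only, beside 7.71% of all tested genes called after RA and 6.96% before it. Another 13 differed in both states in the same direction and 37 in neither. Mphosph6 was the single gene called in opposite directions, 0.38 in proliferating and -0.44 in RA-treated cells. Its interaction of -0.82 came from the dimmer of its 2 probe sets, and the brighter one gave -0.05. In all, 14 of the 124 genes had more than 1 probe set. The probe set not used gave a smaller interaction of the same sign, under the 1.3-fold limit, for Dusp8 (-0.31), Otogl (-0.24), Uqcc2 (-0.23) and Ndufa11 (-0.18).

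Most lists of pathways held no called interaction. None of the 29 tested S phase genes and none of the 29 tested mitotic genes was called by limma. Of these, 27 S phase and 27 mitotic genes rose by the call rule in control cells and 26 and 26 in knockdown cells, and their median interactions were -0.08 and -0.07. At an unadjusted p under 0.05 there were 9 S phase and 3 mitotic genes, all negative. None of 17 sterol biosynthesis genes was called by limma, and 5, all negative, had an unadjusted p under 0.05. Of the sterol genes 5 fell by the call rule in control and 8 in knockdown cells, and 1 of 17 interactions was above 0, with a median of -0.17. No limma call was made among the listed members of other pathways, namely 10 tested Hox genes, 6 retinoid receptors and corepressors, 13 Wnt, 8 Notch, 17 BMP and TGFβ, 5 DNA methylation, 18 synaptic, 15 axon guidance, 14 oxidative phosphorylation, 20 ion channel, 19 matrix and integrin, 11 p53 and apoptosis or 12 fatty acid synthesis genes. In these 13 lists, 33 of 168 tested genes had an unadjusted p under 0.05, beside 1725 (17.3%) of all tested genes. The lists are not complete, and called genes of like function lay outside them: the channel genes Kcnh7 and Ryr2 (interaction -0.46), the integrin gene Itga2, the respiratory complex gene Ndufa11 (-0.48) and the assembly factor gene Uqcc2 (-0.38), the synapsin gene Syn3 (-0.39) and the Wnt antagonist gene Sfrp4 (-0.47). Nos1 was the one called of 17 catecholamine, acetylcholine and nitric oxide genes, Ppy of 9 neuropeptide and granin genes, and Pdia4 of 15 amino acid response and ER stress genes. Over all tested genes 1.24% were called in either direction.

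**Figure D4:**
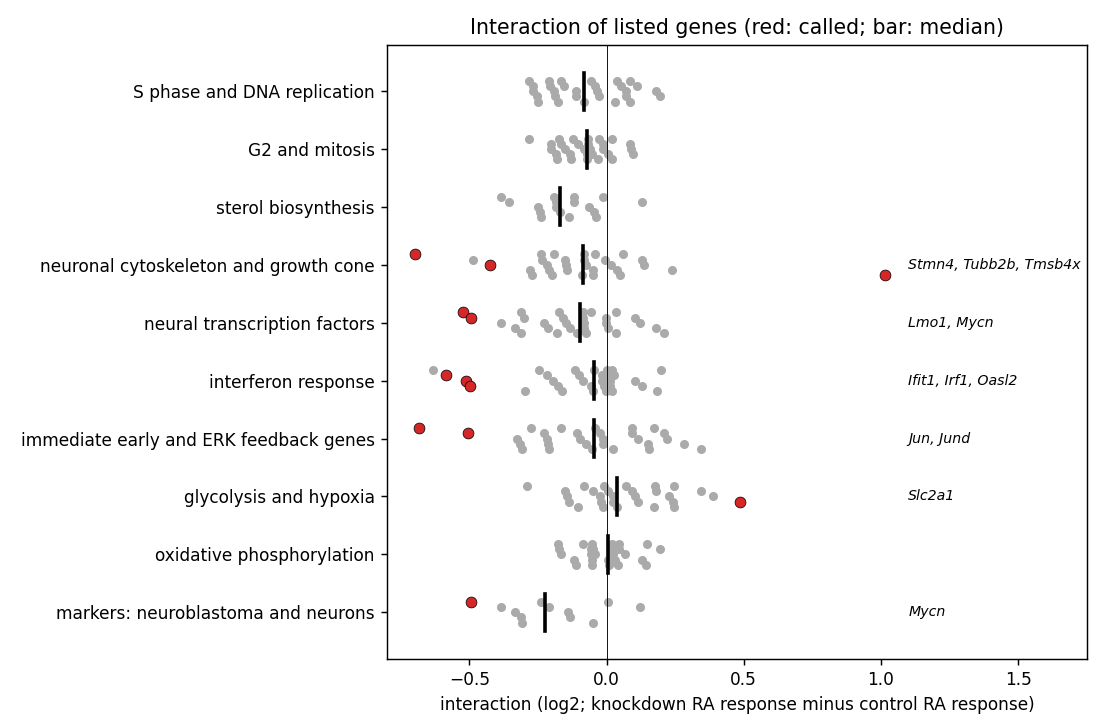
Interaction, on the log2 scale, of the measured members of 10 gene lists (points), with the list median (black bar). Red points are the called members, which are named at the right in order from low to high. The lists of cell cycle, sterol and oxidative phosphorylation genes have no red point, although Ndufa11, a called respiratory complex gene, is not on the list.

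The genes the study speaks of were also looked up by name. Dkk1, a secreted Wnt inhibitor, had levels of 12.05 to 12.14 and 12.17 to 12.19 on control arrays and 11.86 to 12.01 and 12.33 to 12.38 on knockdown arrays, and Fzd5, a Wnt receptor, rose by 1.00 in control and 1.32 in knockdown cells. Their interactions were 0.31 and 0.31, with limma adjusted p of 0.044 and 0.043, but smaller than 1.3-fold, so neither was called. For the adhesion genes Nrcam (interaction 0.06, 95% interval -0.22 to 0.35) and Dscam (-0.03) and the homeobox gene Dlx1 (-0.06), the levels were lower in knockdown cells in both states by the call rule, with no called interaction. Pax3 had an interaction of -0.31 (limma adjusted p = 0.21). Ache, which encodes acetylcholinesterase, fell by 0.69 on the log2 scale in control and by 0.73 in knockdown cells. Dlgap5, Hmgb2, E2f2 and Dnmt1 had interactions between -0.17 and 0.08, none called, and Pou3f3, the neighbour of Dali, did not pass the spread filter (interaction -0.004).

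How far a call depended on single arrays differed widely between members. Without the third RA-treated control array 41 genes were called, without the second proliferating knockdown array 46, and without the first RA-treated knockdown array 137. The count was 67, 51 and 61 without the first, second or the third proliferating control array, 78 and 55 without the first or the third proliferating knockdown array, and 60 and 73 without the second or the third RA-treated knockdown array. It was 92 and 91 without the first or second RA-treated control array. With each array's values centred on its median, 159 genes were called and the positive share was 24.5%, against 39.5% of the 124. Of the 124 genes, 22 were called in every one of 22 settings, namely the fit reported here, 9 other ways of processing and the 12 omissions. They were 3 positive (Abcc3, Cemip2 and Sobp) and 19 negative interactions, in 11 gained, 4 weakened, 3 lost, 2 strengthened genes and 2 with neither response called. Nos1 passed in 21, Mycn and Procr in 19, and Jund in 17 of the 22. Other named genes were less secure. Of the 12 omissions, Ndrg2 and Tube1 kept the call in 1 and Kcnh7 and Resf1 in 2. Fetub and Nfkbia kept it in 3, and Lix1 and Cd63 in 4.

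**Figure D5:**
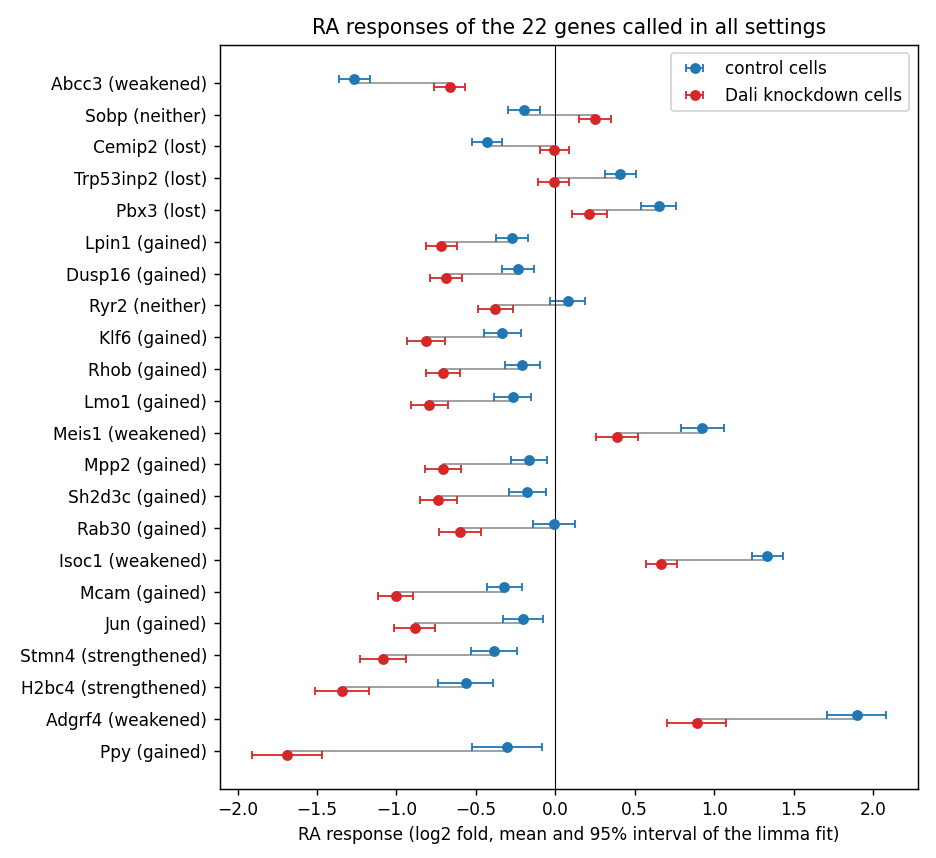
RA responses, as log2 fold with the 95% interval of the limma fit, of the 22 genes called in all 22 settings, in control (blue) and knockdown (red) cells, ordered by the interaction from most negative (bottom) to most positive (top). The red point lies to the left of the blue one for 19 genes and to its right for Abcc3, Sobp and Cemip2.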

How the data were processed

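Total RNA of 12 N2A samples was hybridised to Affymetrix Mouse Gene 1.0 ST arrays. The authors deposited log2 expression values, which the submitters' processing notes credit to RMA with limma for testing, and no raw intensities were used. Array medians lay between 7.15 and 7.21. Of 35556 probe sets, 21789 had 1 gene symbol, 1621 several and 12146 none in the annotation used, and those with 1 symbol gave 19938 genes, each represented by its most variable probe set (by interquartile range over all arrays) (999 genes had several). The 50% of genes with the larger interquartile range were tested.

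The 4 group means were fitted to all 12 arrays with limma 3.58.1 in R 4.3.3, without covariates, and the interaction and both RA responses were taken as contrasts with moderated statistics. P-values were adjusted by Benjamini and Hochberg over the 9969 genes tested. A gene was called at an adjusted p under 0.05 and at least 1.3-fold, and intervals are 95%. The 3 arrays per group limit the precision. The script was tested on simulated data.

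Named were the 12 largest called interactions in each direction, the 4 largest in each class and direction, up to 4 called members of each list, and the genes the study speaks of, leaving out predicted, small RNA, mitochondrial, olfactory and vomeronasal receptor genes. Members and lists were chosen with earlier results of these data known. Alternatives changed the filter, the fold limit, the probe set, the scaling, the array weights and the variance model, added a replicate block or left out 1 array. A comparison of promoter CpG content was not made because 78.2% of tested genes, fewer than the 80% needed, had a promoter window in the reference table.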

Additional observations from a re-analysis of the deposited data

Results flagged for a closer look

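Each called interaction is a tested difference between the RA responses of 2 kinds of cell, and all 124 genes stand out for that reason. The named ones are listed here by class, with the interaction on the log2 scale. Among lost responses, Nos1 (0.77), Procr (0.76), Phxr4 (0.79), Cd63 (0.53), Ndrg2 (0.52) and Slc16a3 (0.51) had a fall and Otogl (-0.58), Kcnh7 (-0.44), Pbx3 (-0.44) and Trp53inp2 (-0.42) a rise in control cells. Weakened responses were the rises of Adgrf4 (-1.01), Isoc1 (-0.67), Resf1 (-0.57) and Meis1 (-0.54) and the falls of Abcc3 (0.60) and Milr1 (0.60). Strengthened responses were the falls of H2bc4 (-0.78), Stmn4 (-0.70), Nfkbia (-0.44) and H1f2 (-0.41) and the rises of Chst15 (0.75) and Tube1 (0.40).

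Gained falls were those of Ppy (-1.39), Lix1 (-0.82), Mphosph6 (-0.82), Cfap221 (-0.72), Jun (-0.68), Mcam (-0.68), H2bc8 (-0.64), Rab30 (-0.59), Ifit1 (-0.59), Lmo1 (-0.52), Jund (-0.51), Mycn (-0.50) and Tubb2b (-0.42). Gained rises were those of Fut11 (2.49), Fetub (0.53), Psmc2 (0.51), Tspan6 (0.49) and Pdia4 (0.44). Tmsb4x (1.01) reversed. With neither response called, Sh2d1b2 (-0.54), Irf1 (-0.51), H1f1 (-0.51) and Oasl2 (-0.50) were negative and Tmeff2 (0.49), Rbm33 (0.49), Slc2a1 (0.49) and Pdgfrb (0.45) positive. Sh2d1b2 and Tspan6 were dim, with mean levels of 3.93 and 4.85 at the 2.56th and 7.70th percentile of all genes. They are not shown to be above background.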

How the results depend on the processing

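The 124 calls became 93 without the spread filter, 134 with a filter on level, 112 and 121 with other choices of probe set, 159 and 133 with other scaling, 148 with array weights and 162 with a trended robust variance. They became 206 with no fold limit and 29 with a 1.5-fold limit. RA calls were then 3298 and 366 in control and 3652 and 375 in knockdown cells. Lost genes numbered 32 with the trended robust variance, 51 with no fold limit and 3 with a 1.5-fold limit, and gained genes 12 with the latter. The 2 reversed genes became 0 without the filter, with the replicate block or at 1.5-fold, 1 with the level filter, centring or array weights, 30 with no fold limit, and 35 when the responses needed only an unadjusted p under 0.05. Leaving out 1 array gave 41 to 137 calls in all, 5 to 24 lost, 16 to 49 gained and 0 to 2 reversed genes.

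With the replicate number as a block, 94 genes were called, 89 of them among the 124. Same-numbered arrays of different groups deviated together at -0.088 to 0.215, median 0.015, so the numbers were not taken as pairs. Of the named genes with a called interaction, 2 changed sign. Rbm33 was -0.0096 with its brightest probe set. Mphosph6 ranged from -0.95 to 0.025 when 1 array was left out. Every such refit chose the most variable probe set anew, and the 2 Mphosph6 probe sets gave -0.82 and -0.05 over all arrays. A change of sign there can thus come from a change of probe set and does not show dependence on 1 array. Of the other values recomputed for the named genes, 1066 kept their side of the threshold, and for called genes also the direction. Another 277 kept the direction but lost the call and 2 gained a call. Among named genes without a call, the interaction crossed 0 for Ache (-0.094 to 0.011), Dscam (-0.107 to 0.032) and Nrcam (-0.025 to 0.147). The cause of these shifts was not tested, and 3 arrays a group limit what can be called.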
